A study of Caenorhabditis elegans with 2 samples.

Results

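Of 115573 ranked peaks for NHR-120 in whole Caenorhabditis elegans young adults, 293 had their summit within 250 bp of the annotated 5′ end of a gene for a small nucleolar RNA (snoRNA). A peak was kept only if no tRNA gene started within 250 bp of the summit, a condition that removed 0 peaks. The choice used position alone, so the signal of the peaks was not part of it. The 293 peaks were nearest to 261 snoRNA genes, of which 31 had at least 2 of them. Of the 346 annotated snoRNA genes, 265 (76.6%) had a ranked summit in this window and 81 had none, and the share over the 46544 other nuclear genes was 45.1%. For 7 peaks a further snoRNA gene start lay within the window, so that such genes share a peak.

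The worms were of strain OP415, which carries the integrated fosmid transgene wgIs415. In it nhr-120 is fused to TY1, EGFP and 3xFLAG tags, beside unc-119(+), in an unc-119(tm4063) background. Cultures were synchronised by bleaching and starvation of L1 larvae and taken as young adults at 64 hours, and sonicated chromatin of whole animals was precipitated with an antibody against green fluorescent protein. There is 1 group with 2 biological replicates and no second condition. NHR-120 is a nuclear hormone receptor, a zinc-finger transcription factor of a family that is much expanded in nematodes. The protein measured is the tagged one from the transgene, in all tissues of the animal together. No control precipitation was analysed here, so NHR-120 at these sites and chromatin that is precipitated without it cannot be told apart.

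The lists that describe both replicates together are called joint lists. The signal of a peak is the authors' own value, whose scale is not stated, and it is also given here as a percentile, the share of the peaks in the same list with a lower signal. The joint thresholded list holds 610 peaks, and peaks that overlap it by at least 1 bp are called thresholded. The ranked lists of replicates 1 and 2 hold 60719 and 58785 peaks and their thresholded lists 89 and 96. The lists give no read counts, so sequencing depth is unknown, and Wilson intervals below cover the counting of peaks or genes only. Over all ranked peaks the median signal was 22.9.

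snoRNAs guide the chemical modification of ribosomal and other RNAs in the nucleolus. Box C/D snoRNAs guide methylation of the ribose and box H/ACA snoRNAs guide conversion of uridine to pseudouridine. Many snoRNA genes lie in introns of protein-coding genes, and such RNAs can be cut from the spliced intron of the host or be made from a promoter of their own. RNA polymerase III transcribes tRNA genes from an internal promoter with an A box and a B box, which are bound by TFIIIC. The genes of spliceosomal snRNAs instead carry a proximal sequence element upstream, which is bound by the SNAP complex. Letter patterns named here after both kinds of gene stand before some snoRNA genes with a peak. Whether they are bound by these factors or act as promoters was not tested. They are shown here because the strength of the peaks differed with them.

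The windows shown run from 120 bases before to 30 bases from the 5′ end of the gene, on the strand of the gene, in the ce11 (WBcel235) assembly, with the bases taken from the RefSeq genome. Together with the later windows of this length they belong to 8 of the 10 strongest peaks. The other 2, Y23H5B.10 and ZK265.10, held neither of the full patterns shown here, so 6 of the 10 hold one, and no sequence is printed from their chromosome. Capitals mark, in the order of the text, an A-like box and a B-like box on the strand of the gene in the set of 5 genes that has them. The B-like box is GTTCGANNC with at most 1 mismatch in its 7 fixed letters, starting between 60 bases before the 5′ end and the 5′ end itself. The A-like box is TGG, any 3 bases and AGTGG, with at most 2 mismatches in its 8 fixed letters, starting 25 to 70 bases before the B-like box. The windows are chrV:11314138-11314287 (plus strand) for T03F7.8, chrII:11960778-11960927 (plus strand) for W03C9.9, chrV:9970242-9970391 (minus strand) for C27H6.5, chrV:15191064-15191213 (minus strand) for Y75B12B.12, chrIV:11474162-11474311 (minus strand) for C10C6.8.
T03F7.8: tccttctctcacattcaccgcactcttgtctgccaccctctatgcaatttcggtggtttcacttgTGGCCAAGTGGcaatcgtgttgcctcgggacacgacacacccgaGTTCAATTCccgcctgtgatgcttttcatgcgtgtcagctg
W03C9.9: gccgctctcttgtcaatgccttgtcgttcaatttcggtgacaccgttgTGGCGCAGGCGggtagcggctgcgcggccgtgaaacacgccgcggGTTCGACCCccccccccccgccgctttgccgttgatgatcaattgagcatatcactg
C27H6.5: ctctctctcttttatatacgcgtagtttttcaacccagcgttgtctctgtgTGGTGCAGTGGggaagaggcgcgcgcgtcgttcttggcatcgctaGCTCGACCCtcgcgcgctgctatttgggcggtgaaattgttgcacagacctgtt
Y75B12B.12: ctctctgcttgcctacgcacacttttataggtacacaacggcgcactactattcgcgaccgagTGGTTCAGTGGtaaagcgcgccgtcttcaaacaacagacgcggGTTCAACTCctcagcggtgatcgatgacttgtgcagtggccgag
C10C6.8: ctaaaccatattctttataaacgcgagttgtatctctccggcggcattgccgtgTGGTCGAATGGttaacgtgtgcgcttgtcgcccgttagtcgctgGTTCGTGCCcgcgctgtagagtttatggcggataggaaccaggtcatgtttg

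A second shared run of letters stood before another set of snoRNA genes. It is CGNAACNCG, then any 5 bases, then TGTC, with at most 1 mismatch in 11 fixed letters, starting 100 to 40 bases before the 5′ end on the strand of the gene. It is called the snRNA-type run here, since 46 of 129 annotated snRNA genes (35.7%) held it in that window. Capitals mark it in the whole window of ZK994.7, the gene with the strongest peak, and in stretches with 6 bases on each side for further genes. T06D8.11 and F43A11.8 had thresholded peaks, and smy-3 and Y53F4B.47 had ranked peaks only. The regions are chrV:8500459-8500608 (plus strand) for ZK994.7, chrII:11224115-11224144 (plus strand) for T06D8.11, chrV:11585414-11585443 (minus strand) for F43A11.8, chrV:14092501-14092530 (plus strand) for smy-3, chrII:15025950-15025979 (minus strand) for Y53F4B.47.
ZK994.7: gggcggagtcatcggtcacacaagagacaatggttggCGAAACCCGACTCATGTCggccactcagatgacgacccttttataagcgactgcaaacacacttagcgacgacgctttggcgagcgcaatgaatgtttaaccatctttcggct
T06D8.11: gataggCGAAACTCGCAAGGTGTCcgccgc
F43A11.8: gaccggCGGAACTCGCTAGGTGTCggcggt
smy-3: gacgagCGGAACCCTCGAGATGTCcggaca
Y53F4B.47: gaggcgCGGAACCCGTCACTTGTCtgctgc

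The remaining windows of the 8, at C51F7.4 and B0334.12, held neither letter pattern before the 5′ end. They are shown because their peaks are among the strongest. They lie at chrV:12303479-12303628 and chrII:11484563-11484712, both on the plus strand. The window of C51F7.4 overlaps coding sequence of frm-7 on the same strand, and that of B0334.12 overlaps coding sequence of twk-5 on the other strand. The peak at C51F7.4 also lies within the window of the neighbouring gene C51F7.3. That gene does have an A-like box at −107 and a B-like box at −44 relative to its 5′ end. This A-like box lies in the window printed for C51F7.4, in lower case, and the summit lies between the boxes. In counts of peaks this peak stands under neither pattern, and in counts by gene it also marks C51F7.3, a gene with the boxes.
C51F7.4: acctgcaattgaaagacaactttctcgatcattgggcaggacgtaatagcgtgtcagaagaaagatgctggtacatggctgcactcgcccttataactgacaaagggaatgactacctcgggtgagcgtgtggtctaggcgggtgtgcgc
B0334.12: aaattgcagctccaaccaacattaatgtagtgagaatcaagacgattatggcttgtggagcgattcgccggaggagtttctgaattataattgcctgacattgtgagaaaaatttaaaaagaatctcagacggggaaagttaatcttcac

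Peaks at snoRNA genes were in the thresholded list far more often than ranked peaks at large. Of the 293 peaks, 41 (13.99%, 95% Wilson interval 10.5 to 18.4) were thresholded, against 0.546% of all ranked peaks (631 of 115573). Counted by gene, 39 of 346 snoRNA genes (11.3%, interval 8.36 to 15.04) had a thresholded summit within 250 bp of the 5′ end, against 0.87% of all 46890 annotated nuclear genes. The median signal was 31.7 (quartiles 20.4 and 47.9) at snoRNA genes, at percentile 73.5 of the joint list, and 71.3% of the peaks lay above the median of that list. Of the 41 thresholded peaks, 40 had the very interval of a thresholded peak. The remaining peak, at +160 from D1046.6 with signal 6.34, only overlapped the stronger peak of the same gene. With W06H8.17 at 26.4 and T04A8.17 at 5.77 it was 1 of 3 thresholded peaks with a signal under 30, and each stood beside a stronger thresholded peak of its gene.

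The replicates were also called separately. In the thresholded list of replicate 1 were 14 of the 293 peaks, against 0.0779% of all joint ranked peaks, and in that of replicate 2 were 17, against 0.0813%. The lists shared 11 of them, which is 78.6% of the 14 and 64.7% of the 17. Of the 41 jointly thresholded peaks, 21 were in neither replicate's thresholded list. All but 1 of the 41 had a ranked peak in both replicates, and the exception, Y74C9A.6, had a signal of 60.2 in replicate 2 and no ranked peak in replicate 1. Over the whole set, 192 of the 293 peaks overlapped a ranked peak of replicate 1, 211 one of replicate 2 and 39 one of neither.

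The list has its limit at an irreproducible discovery rate (IDR) of 0.01, and signals on its sides overlapped. The last peaks inside were at Y37E3.20 (signal 69.6), with an IDR of 0.00947, and a pair at W06H8.17, with signals of 68.7 and 26.4 and IDRs of 0.00967 and 0.00969. The first peaks outside were at C41C4.11 (84.7, IDR 0.0120), ZK185.9 (64.2, 0.0143) and F25H2.15 (81.8, 0.0151). The highest signal outside the list was 88.8, at F55H12.9, so signal alone did not decide membership. At the edge of the 250 bp window, the 17 peaks in its last 10 bp had a median signal of 30.6 and the 5 peaks in the next 10 bp beyond it 44.8.

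Peaks just before the gene were stronger in the median than those at other distances. With summits 1 to 100 bp upstream of the 5′ end, 93 peaks had a median signal of 42.3 (quartiles 26.2 and 84.7), against 29.1 (quartiles 18.3 and 41.8) for the 200 peaks at other distances. Of the 93 upstream peaks 27 were thresholded (29.0%, interval 20.8 to 38.9), against 14 of the 200 others (7.0%, interval 4.22 to 11.4). The difference of the median percentiles was 22.8 points in the joint list, 32.3 in the list of replicate 1 alone and 29.5 in that of replicate 2 alone. Both single lists thus gave the same direction, and the spread between them was small beside the difference. The summits of the 41 thresholded peaks had a median position of −29 (quartiles −46 and 0), where negative positions are upstream.

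**Figure D1:**
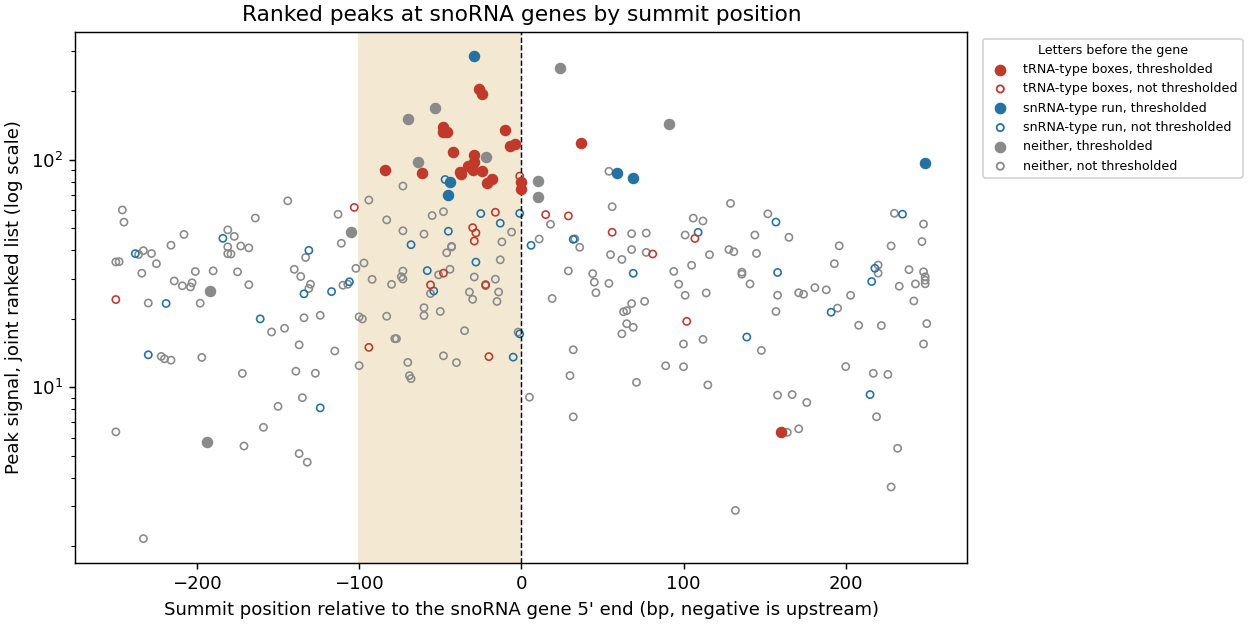
Signal of each of the 293 peaks in the joint ranked list (vertical, log scale) against the position of its summit relative to the snoRNA gene 5′ end (horizontal, bp), with 1 to 100 bp upstream shaded; colours give the letters before the gene and filled points are thresholded. In the 50 bases upstream 22 of 58 peaks were thresholded, and most of the red points stand there.

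In finer steps the median signal was 31.7 at 250 to 151 bp upstream (47 peaks, 2 thresholded), 27.2 at 150 to 101 bp upstream (29 peaks, 1 thresholded) and 29.9 at 100 to 51 bp upstream (35 peaks, 5 thresholded). It was 51.4 at 50 to 1 bp upstream, where 22 of 58 peaks were thresholded (37.9%, interval 26.6 to 50.8). Inside the gene and beyond, the median was 44.6 at 0 to 49 bp (23 peaks, 6 thresholded), 34.3 at 50 to 99 bp (26 peaks, 3 thresholded) and 32.0 from 100 to under 150 bp (25 peaks). None of those 25 was thresholded, which allows a share of up to 12%. At 150 to 250 bp it was 26.4 (50 peaks, 2 thresholded). The highest bin medians thus lie from 50 bp before to 49 bp after the 5′ end, and the medians on either side are close to each other. Single strong peaks also lay outside this span. The highest signal was 169 at 100 to 51 bp upstream and 143 at 50 to 99 bp.

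Peaks at tRNA genes, the set most alike, had their thresholded summits on the other side of the gene start. The 41 thresholded snoRNA peaks had 27 summits 1 to 100 bp upstream and 9 at 0 to 99 bp, while the 98 thresholded tRNA peaks had 18 upstream and 76 at 0 to 99 bp, with a median position of −29 for snoRNA and +32.5 for tRNA peaks. The thresholded share was 13.99% of 293 snoRNA peaks and 18.4% of 534 tRNA peaks, with a median signal of 31.7 at snoRNA genes and 44.9 at tRNA genes. At neither kind of gene, 492 of 114746 ranked peaks (0.429%) were thresholded. No test was run on these differences. Positions are relative to annotated 5′ ends, and where an annotated end is not the true start of the RNA the distances and box positions shift with it, which was not tested.

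The snoRNA genes were sorted by their place relative to protein-coding genes, and a peak took the class of the nearest snoRNA gene. There were 119 peaks at genes in an intron of a host on the same strand, 28 at genes that overlap an exon of such a host, 33 at genes inside a host on the other strand and 113 at genes between protein-coding genes. The median signals were 29.9 (quartiles 20.3 and 45.1) for same-strand intronic genes, 32.1 (13.1 and 44.4) for same-strand exonic genes, 36.3 (25.3 and 47.9) for genes within a host on the other strand and 32.5 (23.3 and 54.3) between genes. The quartile ranges of all 4 classes overlap widely. Thresholded peaks numbered 14 of 119 (11.8%, interval 7.14 to 18.8) in same-strand introns, 1 of 28 (interval 0.633 to 17.7) in same-strand exons, 7 of 33 (21.2%, interval 10.7 to 37.8) on the other strand and 19 of 113 (16.8%, interval 11.0 to 24.8) between genes. All these intervals overlap each other.

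Same-strand intronic peaks had a lower median percentile than peaks between genes, at 69.2 for same-strand introns against 75.2 between genes, a difference of −5.97 points. The difference was −15.4 points in replicate 1 alone, from percentiles of 66 in same-strand introns and 81.4 between genes, and −13.8 in replicate 2 alone, from 66.9 in same-strand introns and 80.7 between genes. The direction was the same in the 3 lists. For genes inside a host on the other strand the median percentile was 82.3 in the joint list, 63.2 in replicate 1 and 60.7 in replicate 2, so its place among the classes was not the same in the joint list and in the single lists.

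The order of same-strand introns and peaks between genes upstream of the gene depended on the distance taken. With summits 1 to 50 bp upstream, the median signal was 64.1 for 20 same-strand intronic peaks (10 thresholded), 39.0 for 5 same-strand exonic peaks (none thresholded, which allows up to 60%), 47.2 for 8 peaks on the other strand (3 thresholded) and 57.9 for 25 peaks between genes (9 thresholded). At 1 to 100 bp upstream the median signals were 30.6 for 37 same-strand intronic peaks, 39.0 for 9 same-strand exonic peaks, 42.3 for 9 peaks on the other strand and 55.6 for 38 peaks between genes. The intronic median was thus above that between genes within 50 bp and below it within 100 bp. At 1 to 100 bp upstream the thresholded shares were 11 of 37 in same-strand introns, 0 of 9 in same-strand exons (up to 33.3%), 3 of 9 on the other strand and 13 of 38 between genes. At other distances they were 3 of 82, 1 of 19, 4 of 24 and 6 of 75 in the same order of classes. A start of a protein-coding gene lay within 500 bp of the summit for 62 of the 293 peaks, of which 5 were thresholded, and for the other 231 peaks 36 were.

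Peak strength differed with the letters before the gene. The A-like box before a B-like box stood before 46 of 346 snoRNA genes (13.3%) and before 193 of the 46544 other genes (0.415%), 71 of them among 19973 protein-coding genes (0.355%). The search covers boxes placed upstream, so the internal boxes of tRNA genes are not counted. Only 1 of 612 tRNA genes (0.163%) held the pair there, though 71.1% had the exact B box within 100 bp of the 5′ end on either strand. The shares thus reflect the placement of the boxes as well as their letters. The pair of boxes was sought after the sequences of genes with thresholded peaks had been seen, so the counts describe these genes and test nothing. Of the 46 genes with boxes 24 had a thresholded peak (52.2%, interval 38.1 to 65.9), against 15 of the 300 without (5.0%, interval 3.05 to 8.08). In replicate 1 alone the counts were 9 of 46 genes with boxes (interval 10.7 to 33.2) and 4 of 261 with neither pattern (0.598 to 3.87), and in replicate 2 alone 10 of 46 (12.3 to 35.6) and 5 of 261 (0.821 to 4.41). Of the 39 genes with a thresholded peak 61.5% had the boxes, and of the 307 genes without one 7.17%. The boxes themselves varied: 7 of the 46 genes matched every fixed letter (4 with a thresholded peak), 13 had 1 mismatch in all (7), 15 had 2 (7) and 11 had 3 (6).

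In the 24 genes with boxes and a thresholded peak, the A-like box started at a median of −58 (range −107 to −45) and the B-like box at −13.5 (range −44 to −7). The summit fell between the start of the A-like and the end of the B-like box in 18 of the 24 thresholded peaks nearest to box genes, and in 8 of the 18 peaks at box genes that were not thresholded. The 42 peaks at box genes had a median signal of 80.6 (quartiles 45.7 and 103), against 29.5 (quartiles 18.7 and 41.9) for the 251 other peaks, and the quartile ranges do not overlap. In replicate 1 the median percentile was 99.4 for peaks at box genes, against 63.2 for the others, and in replicate 2 it was 98.2 for peaks at box genes, against 62.9 for the others. Among peaks that were not thresholded the medians were 44.4 for 18 peaks at box genes and 28.51 for 234 others. Within 1 to 100 bp upstream they were 88.6 for 30 peaks at box genes (20 thresholded) and 31.2 for 63 others (7 thresholded), at the same range of distances. The boxes were sought after genes with thresholded peaks had been seen. All these differences, also in the replicates, thus describe the peaks and test nothing.

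**Figure D2:**
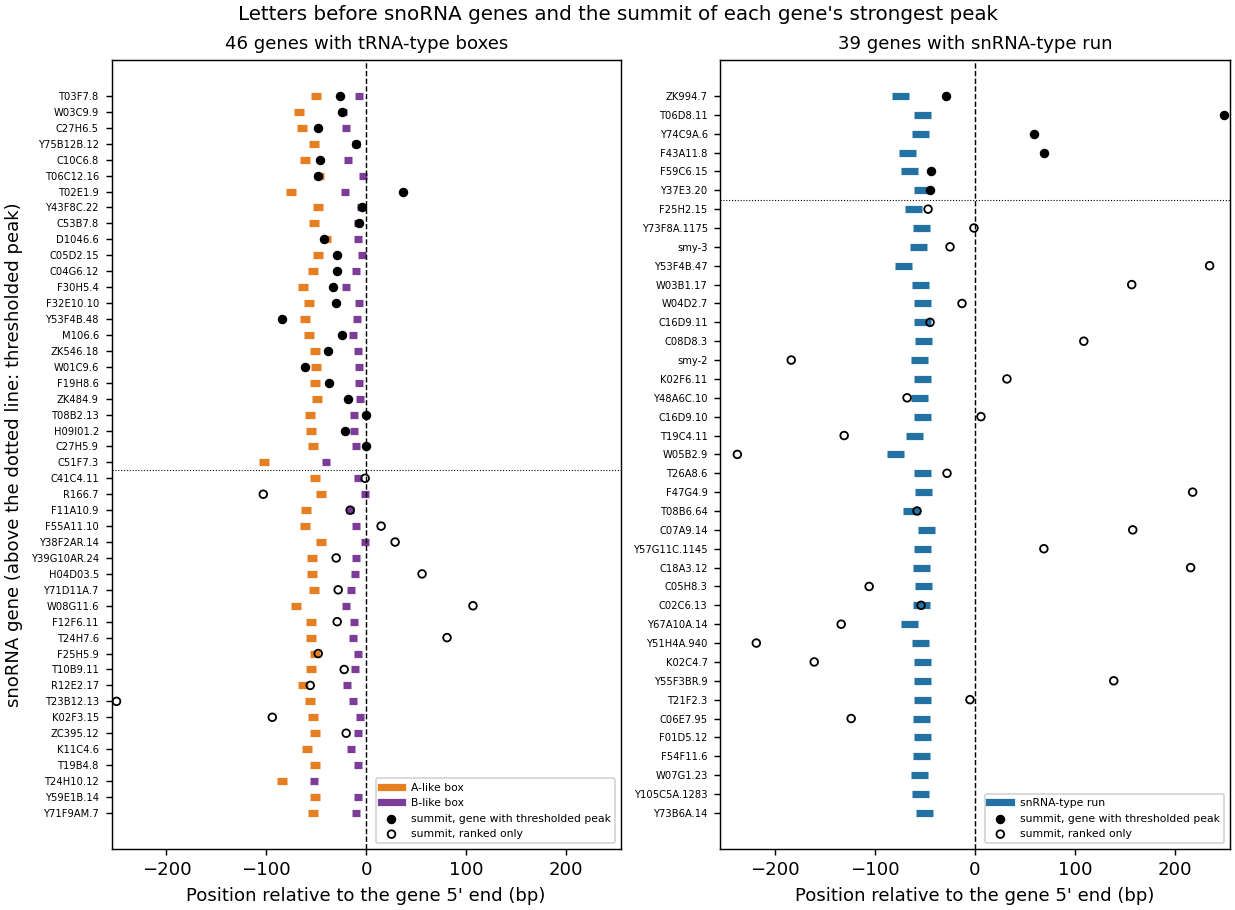
Position of the A-like box, the B-like box and the snRNA-type run (coloured bars) and of the summit of the strongest peak (points) for the 46 genes with boxes, left, and the 39 genes with the run, right, relative to the gene 5′ end (bp); genes above the dotted line had a thresholded peak. On the left most filled points stand between the bars, and on the right they lie on both sides of the 5′ end. C51F7.3 and genes without a nearest peak have no point.

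The snRNA-type run stood before 39 snoRNA genes (11.3%) and 96 of the 46544 other genes (0.206%), of which 46 were snRNA genes and 10 were protein-coding. It matched without a mismatch in 31 of the 39, and its start had a median position of −62 (range −88 to −57), with 29 of the 39 starts between −64 and −57. None of the 39 genes also had the boxes. The run too was found by looking at genes with thresholded peaks. Of the 39 genes 6 had a thresholded peak (15.4%, interval 7.25 to 29.7), all with an exact match, against 9 of the 261 genes with neither pattern (3.45%, interval 1.82 to 6.42). These intervals do not overlap, but they do under several other settings. With the conservative list the counts were 5 of 39 genes with the run (interval 5.60 to 26.7) and 9 of 261 with neither. Without peaks in repeated sequence they were 4 of 39 (4.06 to 23.6) and 8 of 261 (1.56 to 5.93). In replicate 1 alone they were 1 of 39 and 4 of 261, and in replicate 2 alone 2 of 39 and 5 of 261. Of the 6 genes, 2, F43A11.8 and F59C6.15, lie in partly repeated sequence (38.3% and 35.3% of the 30-base words of the peak occur again in the genome).

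The 39 peaks at genes with the run had a median signal of 38.6, lower than the 80.6 of peaks at box genes and higher than the 28.4 of the 212 peaks at genes with neither. In replicate 1 the median percentiles were 99.4 for box genes, 84.9 for run genes and 60.6 for neither, and in replicate 2 they were 98.2, 75.4 and 57.2, the same order. At 1 to 100 bp upstream the median signals for boxes, run and neither were 88.6, 50.5 and 29.8, with 20 of 30, 3 of 14 and 4 of 49 peaks thresholded. At other distances the medians, in the same order, were 52.3, 31.9 and 28.4, with 4 of 12, 3 of 25 and 7 of 163 thresholded. Peaks at genes with neither pattern had nearly the same median upstream and elsewhere. Since both patterns were sought after genes with thresholded peaks had been seen, these orders test nothing.

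The order of the 3 medians held in same-strand introns and between genes. On the other strand the run stood slightly below neither pattern. Between genes the quartiles of the run (22.3 and 55.4) and of neither (18.7 and 44.2) overlapped widely. In same-strand introns the median signal was 58.02 for 22 peaks at box genes, 48.4 for 9 at run genes and 27.8 for 88 at neither. Between genes it was 89.7 for 15, 32.5 for 23 and 29.3 for 75. On the other strand it was 81.8 for 5, 31.9 for 7 and 33.0 for 21. The 28 same-strand exonic peaks were all at genes with neither pattern. Counted by gene, thresholded peaks in same-strand introns stood at 10 of 23 genes with boxes, 3 of 12 with the run and 1 of 110 with neither. Between genes they stood at 10 of 17, 3 of 20 and 5 of 93. On the other strand they stood at 4 of 6, 0 of 7 (which allows up to 42.9%) and 2 of 20. Of the 14 same-strand intronic genes with a thresholded peak, 13 thus had the boxes or the run before the gene, and the 1 without was F38E11.14, in cng-3. The 13 include C51F7.3, whose thresholded peak is nearest to the same-strand exonic gene C51F7.4. Both patterns were sought after genes with thresholded peaks had been seen, so these counts describe the genes and test nothing.

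**Figure D3:**
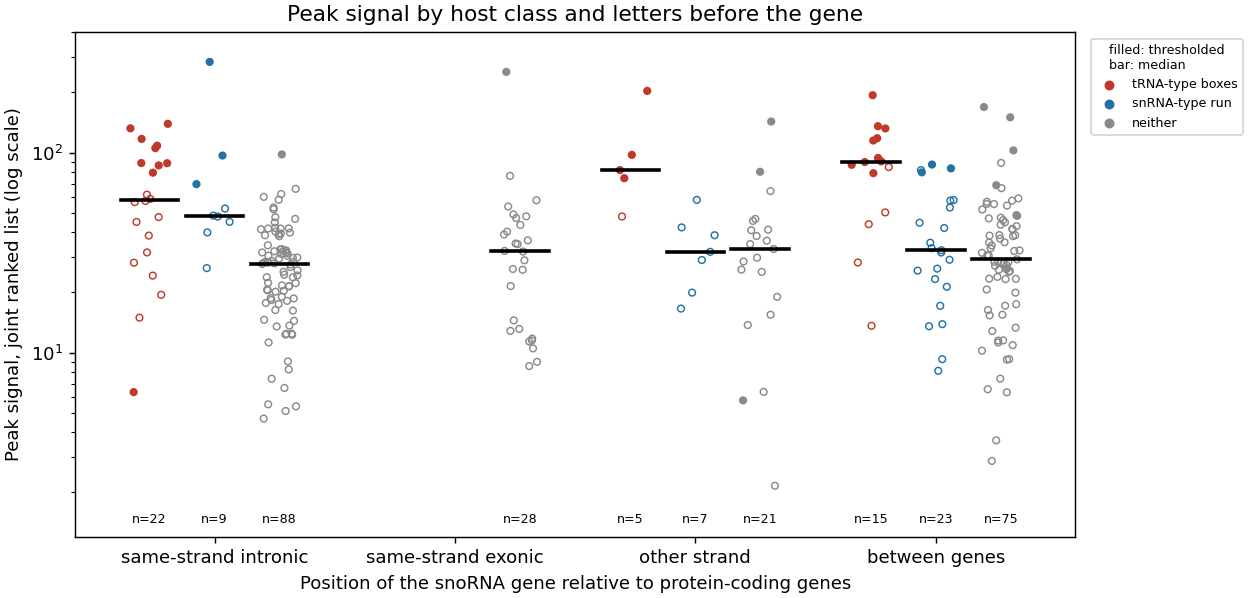
Peak signal in the joint ranked list (log scale) by host class of the nearest snoRNA gene, with peaks at genes with tRNA-type boxes (red), the snRNA-type run (blue) and neither (grey) side by side; filled points are thresholded, bars are medians and n is the number of peaks. The red medians are 58.02, 81.8 and 89.7 where there are red points, and the grey medians lie between 27.8 and 33.0.

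**Figure D4:**
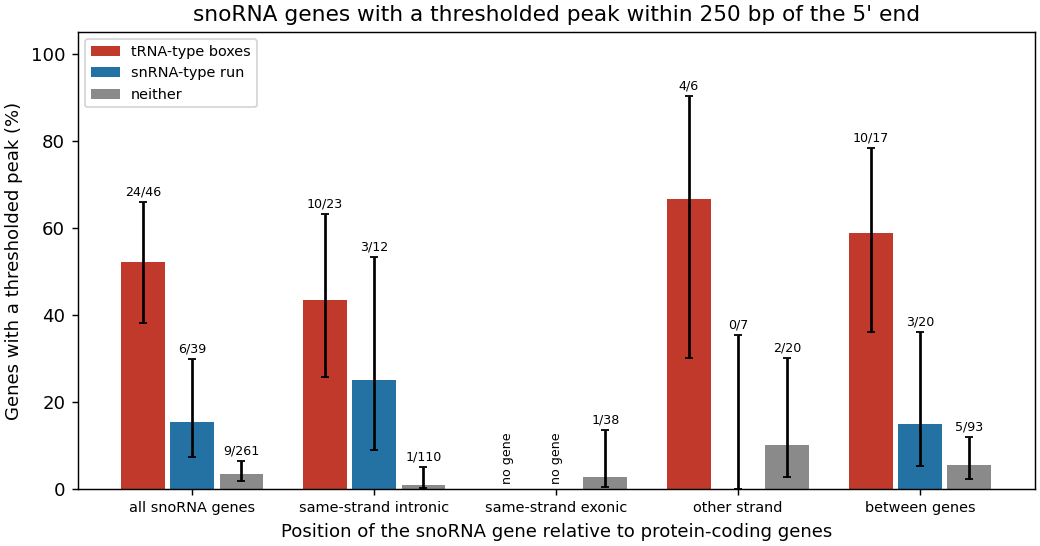
Percentage of snoRNA genes with a thresholded summit within 250 bp of the 5′ end, by host class and letters before the gene, with 95% Wilson intervals as error bars and counts above them. Over all classes the percentages are 52.2, 15.4 and 3.45.

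The strongest peak in a same-strand intron was at ZK994.7, a gene in pxn-1, which encodes a peroxidasin of the extracellular matrix. Its signal was 284 in the joint list, 137 in replicate 1 and 136 in replicate 2, with the summit at −29 (peak chrV:8500476-8500606). The next, at C27H6.5 in unc-41, which encodes a stonin-like protein of synaptic vesicle recycling, had 139 jointly, 67.3 in replicate 1 and 78.3 in replicate 2, with the summit at −48. C10C6.8, in catp-8, a P-type ATPase gene, had 132, 50.4 and 80.9, with the summit at −46. Y43F8C.22, in Y43F8C.7, had 117, 63.9 and 54.9, with the summit at −4. The lowest of their percentiles in a replicate's own list was 99.7. ZK994.7 has the snRNA-type run and the others have the boxes.

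Some other same-strand introns with a thresholded peak belonged to hosts of general cellular roles. T08B2.13 lies in fars-1, a phenylalanyl-tRNA synthetase gene, M106.6 in mix-1, a condensin subunit gene, ZK546.18 in mdt-4, a Mediator subunit gene, and D1046.6 in cfim-2, a gene for a cleavage factor of mRNA 3′ end formation. T08B2.13 had 79.4 jointly, 45.03 in replicate 1 and 33.1 in replicate 2, with the summit at 0. M106.6 had 88.7, 38.6 and 44.04 with the summit at −24, ZK546.18 had 88.5, 47.7 and 48.4 at −38, and D1046.6 had 108, 46.1 and 57.3 at −42. All 4 have the boxes. These 4 genes were picked for what is known of their hosts, not by value.

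In same-strand exons the peak at C51F7.4, in frm-7, a gene for a FERM-domain protein, was the only thresholded peak. Its signal was 253 jointly, 110 in replicate 1 and 142 in replicate 2, with the summit at +24 (peak chrV:12303491-12303754), 85 bases before the 5′ end of C51F7.3. The next peaks of the class, at F39B2.14 (76.5, with 38.3 and 35.2 in the replicates), F58D5.11 (57.8) and C14C10.8 (53.8), were not in the joint thresholded list, though the conservative list held a peak that overlaps the one at F39B2.14. F58D5.11 had no ranked peak in replicate 2 and C14C10.8 none in replicate 1.

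Inside a host on the other strand the strongest peak was at T03F7.8, within cutl-18, a cuticlin-like gene, with 204 jointly, 109 in replicate 1 and 94.3 in replicate 2, and the summit at −26 (peak chrV:11314100-11314363). B0334.12, within the potassium channel gene twk-5, had 143, 49.2 and 93.3, and its summit lay at +91, past the end of the 70-base gene. C04G6.12, within the MAP kinase gene mpk-2, had 97.5, 43.3 and 49.99, and ZK484.9, within the ABC transporter gene haf-9, had 81.8, 29.4 and 48.8. Of these 4, B0334.12 and ZK484.9 differed most between the replicates, with the higher value in replicate 2 at both.

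Between genes, W03C9.9 had 194 jointly, 86.4 in replicate 1 and 109 in replicate 2, with the summit at −24 (peak chrII:11960820-11960894). Y23H5B.10 had 169, 85.5 and 81.0 with the summit at −53, and ZK265.10 had 150, 71.6 and 79.2 with the summit at −70. Both of these genes had neither pattern, though Y23H5B.10 had a B-like box without an A-like box. Y75B12B.12 had 136, 56.2 and 83.3 at −10, T06C12.16 had 132, 59.9 and 69.5 at −48, and T02E1.9 had 118, 48.3 and 74.7 at +37. The first 11 of the 18 named peaks were in both replicates' thresholded lists, and T02E1.9 only in that of replicate 2 and Y43F8C.22 only in that of replicate 1.

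**Figure D5:**
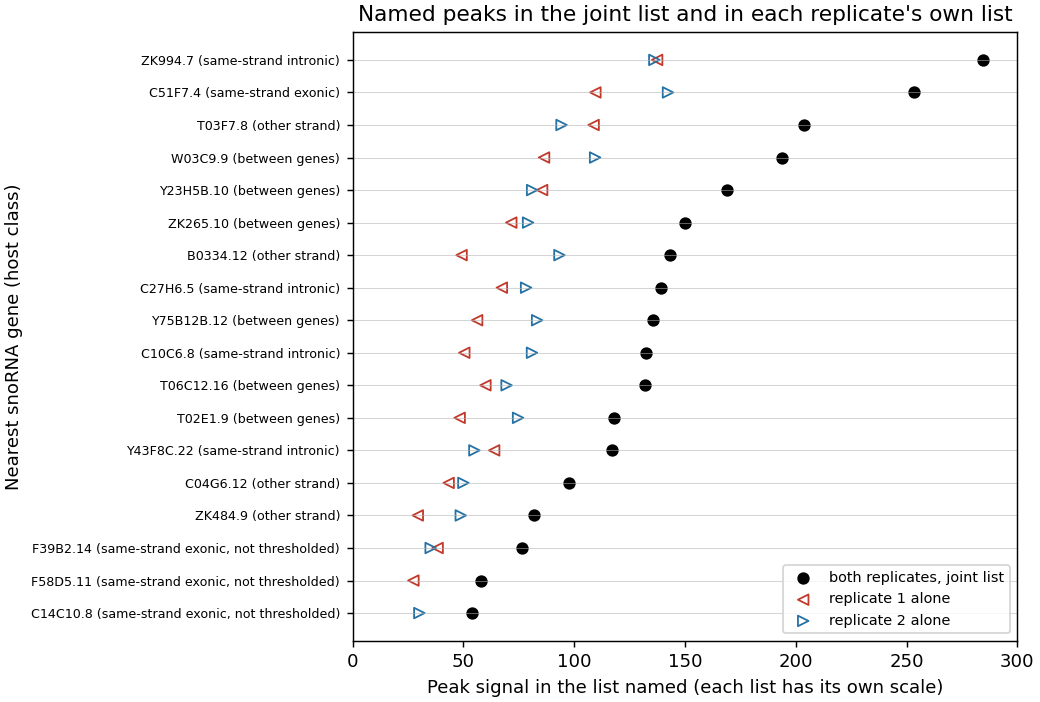
Signal of the 18 named peaks in the joint ranked list (black circles) and in the ranked lists of replicate 1 (red) and replicate 2 (blue), each list on its own scale, with the host class of the nearest snoRNA gene. The joint value is above both replicate values for every peak shown with both, and the order at the top is led by ZK994.7, C51F7.4 and T03F7.8.

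At genes with the snRNA-type run, thresholded peaks other than that of ZK994.7 had signals of 69.6 to 96.7. T06D8.11, in plpr-1, had 96.7 jointly, 51.1 in replicate 1 and 46.3 in replicate 2, and its summit lay at +249, past the 77-base gene. F43A11.8 had 83.4, 51.2 and 26.6 with the summit at +69, and F59C6.15 had 79.7, 38.9 and 50.8 with the summit at −44. Y37E3.20, in pcyt-2.1, had 69.6, 32.2 and 39.8 at −45, and Y74C9A.6 had 87.2 jointly at +59. The 6 summits had a median position of +15, and 3 of them lay 1 to 100 bp upstream, compared with 20 of 24 at genes with boxes.

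The longest run of neighbouring snoRNA genes in a single host lay in nol-56, which itself encodes a core protein of the C/D snoRNA particles. Its 4 same-strand intronic snoRNA genes each had a ranked peak in the joint list and none was thresholded, with IDRs of 0.226 to 0.686. Only the peak at K07C5.12 overlapped a ranked peak of both replicates. Those at K07C5.18 and K07C5.10 overlapped none of replicate 1 and had the same replicate 2 signal of 13.0. The peak at K07C5.11 overlapped none of either replicate, and its summit lay 69 bp from a protein-coding gene start. A stronger ranked peak, of signal 61.4 at +771 from the nol-56 start, was not among the 4. The joint signals of the 4 were 24.3 at K07C5.18, 26.8 at K07C5.10, 38.2 at K07C5.12 and 32.4 at K07C5.11. All lay between the quartiles of the same-strand intronic class. The letters before these genes held neither the boxes nor the snRNA-type run. In all, 97 host genes had at least 1 same-strand intronic snoRNA gene with a ranked peak, and 12 had at least 2.

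By the letters of the RNA itself, 14 snoRNA genes were C/D-like (TGATGA in the first 20 and CTGA in the last 20 bases) and 82 H/ACA-like (ACA in the last 8 bases and at least 110 bases long), while 250 were neither. Thresholded peaks stood at 4 of the 14 (28.6%), 11 of the 82 (13.4%) and 24 of the 250 (9.6%), against 11.3% of all 346 snoRNA genes. These classes describe letters and are not functional classes. A run of 4 T within 30 bases after the gene, a stop signal of RNA polymerase III, followed 30 of the 39 genes with a thresholded peak (76.9%, interval 61.7 to 87.4) and 153 of the 307 without (49.8%, interval 44.3 to 55.4). All 14 same-strand intronic genes with a thresholded peak had it. By the strict letters alone, on either strand within 100 bp of the 5′ end, the exact B box GTTCGANNC was at 23.1% of the 39 and 5.54% of the 307, against 3.03% of other genes.

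The hexamer AGGTCA, the classic core of nuclear receptor sites, was within 100 bp of the 5′ end, on either strand, at 1 of the 39 genes with a thresholded peak (2.56%), 20 of the 307 without (6.51%) and 4.92% of other genes. Within 100 bp of the summit it was at 2 of 41 thresholded and 16 of 252 other snoRNA peaks, against 5.47% of all ranked peaks. TATAAA was at 17.9% of the 39, 15.6% of the 307 and 26.5% of other genes, and GAGAGA at 10.3%, 16.9% and 12.1%. TTTTT was at 53.8%, 73.9% and 90.6%, and the box C hexamer TGATGA at 28.2%, 23.1% and 15.7%. Absence of a match says only that these letters are not in the window.

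Genes for proteins that work on snoRNAs were read against all protein-coding genes. Over 19973 protein-coding genes, a ranked summit lay 1 kb or less from the start of 17631 and a thresholded one at that distance from the start of 297. Of 8 genes of snoRNA particles and their assembly, 8 had a ranked and 0 a thresholded summit, which allows a share of up to 37.5%, and the background share is far below that limit. A further 2 genes of the list were not matched by name and were not analysed here. Among the 8 genes analysed, the highest signals were 66.4 at nol-58, 61.6 at nola-3, 61.4 at nol-56 and 52.9 at fib-1, the fibrillarin gene that carries the methylase. The gene of the pseudouridine synthase, dkc-1, had 24.3. Of 26 genes for transcription and processing of short RNAs, among them subunits of RNA polymerase III, the SNAP complex and Integrator, 24 had a ranked and 1 a thresholded summit. That gene was xrn-2, a 5′ to 3′ exonuclease, with 91.9 at +98.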

How the data were processed

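Peak lists of NHR-120 chromatin immunoprecipitation from whole young adults were used, 8 in all, from 2 biological replicates of 1 group. Control precipitations were not analysed here. The build is ce11, per the labels. How reads were aligned, how peaks were called and whether a control entered are not given in the sources. Deposited for each peak are a signal value of unstated scale, a −log10 q value, a summit and, in the ranked lists, the −log10 global IDR, all made by the authors. The joint lists rest on the alignments of the 2 replicates together and each other list on a single alignment, per the deposited file descriptions. All joint ranked peaks lie within the WBcel235 chromosome lengths.

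Genes came from the Ensembl annotation of WBcel235 and bases from the RefSeq genome of the same build. The summit of each peak in the joint ranked list was placed against the nearest snoRNA 5′ end, in the direction of the gene. A host is a protein-coding gene whose span holds the snoRNA gene, and a same-strand host takes precedence. Percentiles use mean ranks for ties. Medians, quartiles, counts and 95% Wilson intervals describe peaks or genes, which are not replicates, and no test was run, since 1 group gives no contrast over samples. A limit for a count of 0 is 3 divided by the total. Each replicate's own lists served as the check of spread. Named peaks are the 12 of highest signal, the 4 highest of each host class and those in both replicates' thresholded lists, plus the longest run of neighbouring snoRNA genes in 1 host.

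The peaks, lists and letters were chosen with earlier results of these data known, and both letter patterns after sequences of genes with thresholded peaks were seen. Alternatives were other windows, ranked and thresholded lists, hosts, mismatches, 1 peak per gene, unrepeated sequence (at most 10% of 30-base words found again) and each replicate alone. Assignment of peaks and letter searches were tested on simulated data. Python 3.11.15, numpy 2.4.6, pandas 2.3.3, scipy 1.17.1 and matplotlib 3.10.9 were used.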

Additional observations from a re-analysis of the deposited data

How the results depend on the processing

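The differences between same-strand introns and peaks between genes, between upstream and other peaks and between letter groups kept their sign under the alternatives run. The order of other-strand and between-gene peaks did not: other-strand peaks had the higher percentile in the reported setting (82.3 for other-strand and 75.2 for between-gene peaks) and the lower with the 100 bp window, with the other joint ranked list and in each replicate alone. Of the values computed under them, 36 stayed within the counting interval or the SD between replicates and 47 moved further. With a window of 100 bp (144 peaks), 25% of the peaks were thresholded, and the median percentile was 70.7 for same-strand intronic, 90.1 for other-strand and 95 for between-gene peaks. The intronic minus between-gene difference was then −24.3 and the upstream difference 4.83, since the peaks far from the gene drop out. With 500 bp (512 peaks) these were 8.98%, 64.4, 75.1, 65.5, −1.09 and 27.9. With the other joint ranked list the class percentiles were 72.3, 76.0 and 78.7. With any longer gene as host, same-strand intronic and between-gene percentiles were 69.98 and 76.0. With 1 peak per gene the class percentiles were 73.5, 85.9 and 84.5, the intronic difference −11.1 and the upstream difference 16.8. Without repeated sequence the other-strand and between-gene percentiles were 78.0 and 76.8 and the intronic difference −7.57.

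From each replicate's lists alone, 6.57 to 7.58% of peaks and 4.05 to 4.91% of genes were thresholded. The whole lists held 89 thresholded beside 60719 ranked peaks in replicate 1, and 96 beside 58785 in replicate 2. Shares over all genes from single lists are not given here. Class percentiles were 66 to 66.9 for same-strand intronic, 60.7 to 63.2 for other-strand and 80.7 to 81.4 for between-gene peaks, the intronic difference −15.4 to −13.8 and the upstream difference 29.5 to 32.3.

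Settings for the letters were chosen after seeing the data. The percentage of genes with a thresholded peak was 48.7 points higher with boxes than with neither pattern, 51.6 with at most 1 mismatch in both boxes, and 18.03 to 19.8 in single replicates. For the snRNA-type run it was 11.9 points higher than with neither, 9.37 with the conservative list, 15.9 with exact matches, 7.19 without repeated sequence and 1.03 to 3.21 in single replicates, where 1 gene with the run was thresholded in replicate 1 and 2 in replicate 2. The cause of these shifts was not tested. No paired analysis was possible because the series has a single group. Depth is unknown, and the peaks at 1 gene or in 1 host are not independent of each other.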

Other observations

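The snoRNA peaks were spread over the 6 nuclear chromosomes. On chromosome V 49 peaks had a median signal of 38.2 and 10 were thresholded (interval 11.5 to 33.6%). On chromosome II 11 of 56 were (interval 11.3 to 31.8%). On the X chromosome 27 peaks had a median of 26.0 and 1 was thresholded (interval 0.657 to 18.3%). It was at C53B7.8 (114.97 jointly, 72.3 in replicate 1 and 42.8 in replicate 2). These intervals overlap. Values over all ranked peaks of each chromosome are not given here, so a level of the whole chromosome cannot be told apart. These values were not tested.

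Peaks at genes with 4 T in the 30 bases after the gene had a median signal of 35.6 (157 peaks, 30 thresholded), against 28.4 for the other 136 peaks (11 thresholded). Of the 261 genes with neither letter pattern, 26 had a B-like box alone, and 2 of these 26, Y23H5B.10 and W06H8.17, had a thresholded peak.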
